A study of Rattus norvegicus with 12 samples.

Results

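The genes described here are 10 genes of iron storage, uptake and iron regulation, picked by name from a count table of 24660 genes: Ftl1, Fth1, Tfrc, Ireb2, Aco1, Steap3, Ncoa4, Gpx4, Hfe and Fbxl5. They were followed through RNA sequencing of NRK-52E cells, an established rat kidney line with the label of tubular epithelial cells and a wild-type genotype. There were 4 groups of 3 libraries. The 3D-EV and 2D-EV cells received TGF-beta1, a profibrotic cytokine, at 10 µg/ml for 24 h (the labels' unit; doses in ng/ml are usual) and afterwards extracellular vesicles (EVs) at 500000000 particles/ml for 48 h. The 3D-EVs came from a more productive method and the 2D-EVs from the conventional one, and no source used here names the cells that released them. TGF-beta1 cells received the cytokine without vesicles, and no agent is named for control cells. Serum at 10% was in the medium of all groups per the labels, whereas harvest times of TGF-beta1 and control cells were not stated, so that vesicles and elapsed time cannot be told apart.

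Cells hold spare iron inside ferritin, a hollow shell of heavy (Fth1) and light (Ftl1) subunits, and take up iron bound to transferrin through the transferrin receptor Tfrc. Inside the endosome the metalloreductase Steap3 reduces that iron before it crosses into the cytosol. The iron regulatory proteins encoded by Aco1 and Ireb2 bind iron-responsive elements in mRNAs when iron is scarce, holding back ferritin translation and sparing Tfrc mRNA from decay, and Fbxl5 marks the Ireb2 protein for destruction when iron is plentiful. Free iron feeds the lipid peroxidation that drives ferroptosis, a form of cell death known in injured renal tubules, and Gpx4 detoxifies the lipid peroxides. These data hold mRNA levels only, and most of the control just described acts on translation or on protein.

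Libraries held 32888125 to 39754319 counts, and 1 count stood for 0.0255 to 0.0305 CPM (read counts scaled to a common library size by TMM). Of the 10 genes, 9 passed the filter on low counts and were tested among 14184 genes; Ncoa4 was the exception. Values are CPM with the SD over 3 libraries, and "rose" and "fell" stand for an adjusted p below 0.05. Log2 fold changes carry an approximate standard error (SE) derived from the edgeR test. It is the absolute log2 fold change over the square root of the F statistic. The 95% intervals were built from this SE with a t quantile. The labels do not say whether libraries came from separate cultures, so p-values reflect library-to-library spread that may be technical alone. Among 10 markers of tubular epithelium, Krt8 (1159, 1178, 1216 and 1013 CPM on average in 3D-EV, 2D-EV, TGF-beta1 and control cells) and Aqp1 (16.2, 16.1, 15.0 and 19.8 CPM) were clearly present, Pax2 and Epcam were listed at 0 throughout, and Krt18, Pax8 and Cdh16 stayed below 1 CPM in the mean of every group. Of the 10 macrophage markers 6 were at 0 in all libraries, and the summed level of the list was 2.90 to 4.30 CPM. The 7 erythroid markers in the table summed to 1.40 to 3.18 CPM, and 8 fibroblast and pericyte markers to 724 to 763, 702 to 714, 699 to 718 and 745 to 791 CPM in 3D-EV, 2D-EV, TGF-beta1 and control cells, mostly Mfap5 and Col14a1. Krt8 rose and Aqp1 and Col14a1 fell in TGF-beta1 against control cells, as some iron genes did. Krt8 also rose and Col14a1 fell in both EV groups against control cells. In 3D-EV against control cells Pdgfrb rose (23.2 against 18.8 CPM, edgeR adjusted p = 0.0154) and Cspg4 fell (3.00 against 4.18 CPM, adjusted p = 0.0238), so that 3 of the 4 tested fibroblast and pericyte markers passed there. The part of such markers in the results against control cells was not tested.

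TGF-beta1 cells against control cells. The comparison asks which iron genes differ once the cytokine has acted. Of the 9 tested genes, 2 rose (Ftl1 and Steap3), 2 fell (Fth1 and Tfrc) and 5 did not pass, where 22% of all tested genes passed in either direction (11.8% higher and 10.2% lower). The libraries of the 2 groups did not overlap for 4 of the 9, against 38% of all tested genes. The median log2 fold change of the 9 was -0.04, beside -0.005 over all tested genes. The subunits of ferritin moved in opposite directions, and so did the uptake receptor and its endosomal reductase.

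Ftl1, the light subunit, which helps iron to mineralise inside the shell, had 4339, 4207 and 3997 CPM in TGF-beta1 cells, against 2978, 3074 and 2866 CPM in control cells. Every TGF-beta1 library lay above every control library, by a margin much wider than the spread within a group. The rise was 1.41-fold (log2 fold change 0.49, SE 0.03, edgeR adjusted p = 1.31e-07). Ftl1 took 0.396 to 0.429% of all counts in TGF-beta1 libraries and 0.294 to 0.317% in control libraries.

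Fth1, the heavy subunit, which oxidises ferrous iron, had 1032, 1025 and 967 CPM in TGF-beta1 cells, against 1178, 1138 and 1182 CPM in control cells. Here the TGF-beta1 libraries were the lower ones, again without overlap. Fth1 fell by 0.21 on the log2 scale (SE 0.03, edgeR adjusted p = 0.000258). RefSeq names 21 further loci after Ftl1 and 6 after Fth1, and the count table has 0 other rows with names starting with either, so reads from near-identical copies could be counted with, or kept from, both genes; no source used here states how the counting treated them.

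The count of Ftl1 over that of Fth1 within a library does not depend on library scaling. This ratio is not corrected for transcript length and is no ratio of molecules. It was 4.21, 4.11 and 4.13 in TGF-beta1 libraries and 2.53, 2.70 and 2.42 in control libraries. The shift was 0.70 on the log2 scale, and an exact two-sided permutation test gave p = 0.1, the smallest value that 3 against 3 libraries allow (adjusted over the 6 comparisons 0.15). The test thus cannot pass at this size, while the groups stood far apart.

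**Figure D1:**
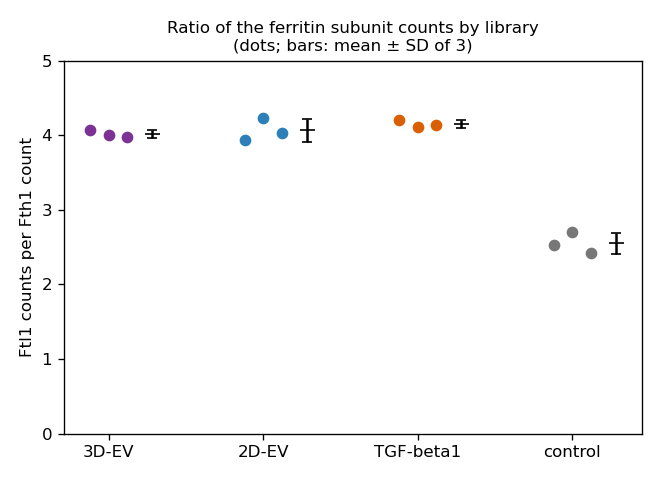
Counts of Ftl1 per count of Fth1 in each library (dots, y axis from 0), with the mean ± SD of the 3 libraries beside them, for 3D-EV, 2D-EV, TGF-beta1 and control cells. The 9 libraries given TGF-beta1 lie between 3.93 and 4.23, and the 3 control libraries between 2.42 and 2.70.

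Tfrc, the transferrin receptor, had 56.3, 54.0 and 62.8 CPM in TGF-beta1 cells, against 70.2, 78.7 and 69.9 CPM in control cells. All TGF-beta1 libraries lay lower, with replicate 3 nearest to the control libraries. Tfrc fell by 0.34 on the log2 scale (SE 0.10, edgeR adjusted p = 0.0230). Leaving out control replicate 2 (0.0977), TGF-beta1 replicate 1 (0.0751) or TGF-beta1 replicate 2 (0.1) ended this call. Steap3, the reductase of the transferrin endosome, had 50.2, 53.4 and 50.4 CPM in TGF-beta1 cells, against 41.8, 40.9 and 43.5 CPM in control cells. Its groups did not overlap, and it rose 1.22-fold (log2 fold change 0.29, SE 0.06, edgeR adjusted p = 0.00425).

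Promoters of 7 of the 10 genes were matched by symbol in a RefSeq table (build GRCr8, another build than that of the counts). Ftl1, Fth1 and Hfe had no match, so the motif search says nothing about the ferritin genes. The 250 bases before the start site are shown for Tfrc and Steap3, the members of the transferrin cycle that changed in opposite directions, with matches to 3 motifs in capitals. The motifs, searched on both strands, were TGACNNNGC (core of the antioxidant response element, bound by NRF2), ACGTG (core of the hypoxia response element, bound by HIF factors) and CACGTG (E-box, which contains ACGTG). They were held by 10.1%, 16.6% and 5.59% of 33469 RefSeq promoters of that length. Tfrc has its location at chr11:81690319-81690568 on the minus strand, and Steap3 at chr13:33944357-33944606 on the minus strand.
Tfrc: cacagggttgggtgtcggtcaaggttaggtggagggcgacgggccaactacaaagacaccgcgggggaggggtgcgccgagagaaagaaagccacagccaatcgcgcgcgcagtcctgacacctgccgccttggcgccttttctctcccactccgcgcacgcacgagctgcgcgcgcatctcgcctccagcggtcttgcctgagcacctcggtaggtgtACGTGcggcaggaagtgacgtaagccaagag
Steap3: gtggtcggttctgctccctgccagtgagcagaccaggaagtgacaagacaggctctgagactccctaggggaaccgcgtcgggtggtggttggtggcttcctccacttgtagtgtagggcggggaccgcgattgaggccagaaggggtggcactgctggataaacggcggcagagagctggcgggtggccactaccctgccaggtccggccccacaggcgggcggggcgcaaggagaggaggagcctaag
The window of Tfrc holds ACGTG once, starting at position -31 from the start site, and that of Steap3 holds none of the 3 motifs. A match is only a run of letters, and no binding was measured. Among the other promoters found, that of Fbxl5 holds CACGTG at position -115, which accounts for its ACGTG matches, and that of Ncoa4 holds ACGTG at -75 and TGACNNNGC at -52. Those of Ireb2, Aco1 and Gpx4 (3 start sites) hold none of the motifs in this window.

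The regulators of iron sensing did not pass. Ireb2, an iron regulatory protein, had 130.5, 137.9 and 136 CPM in TGF-beta1 cells, against 129.5, 127.4 and 131.6 CPM in control cells. The groups overlapped, and the 95% interval of the log2 difference ran from -0.02 to 0.14 (edgeR adjusted p = 0.328). Aco1, the other iron regulatory protein and a cytosolic aconitase when it carries an iron-sulfur cluster, had 61.9, 57.9 and 64.3 CPM in TGF-beta1 cells, against 62.2, 60.6 and 66.5 CPM in control cells. Its interval was -0.15 to 0.07 (adjusted p = 0.649). Fbxl5, the iron-sensing ubiquitin ligase subunit, had 89.4, 93.7 and 90.2 CPM in TGF-beta1 cells, against 100.4, 87.5 and 94.5 CPM in control cells, with an interval of -0.15 to 0.06 (adjusted p = 0.573). For these 3 genes the intervals leave out changes of 0.49 (log2), the size seen for Ftl1.

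Hfe, a partner of the transferrin receptor that takes part in iron sensing, was weakly expressed, with 78 to 118 counts in any library. It had 2.73, 2.19 and 2.91 CPM in TGF-beta1 cells, against 2.39, 3.36 and 3.22 CPM in control cells. At this depth the interval was wide (-0.56 to 0.17, edgeR adjusted p = 0.478), so a change of the size of that of Tfrc could be missed. Ncoa4, the receptor that delivers ferritin to autophagosomes, was listed at 0 in all 12 libraries. A count of 0 allowed at most 0.0764 to 0.0916 CPM (3 counts), for counting error only. RefSeq names 1 further locus after Ncoa4, and the count table has 0 other rows so named. Cells of many kinds use this gene, and the assignment of reads is not described. For these reasons no more is said than that Ncoa4 was listed at 0.

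Gpx4, the selenium-dependent peroxidase that protects membrane lipids, had 226.2, 227.3 and 211.2 CPM in TGF-beta1 cells, against 216.9, 203.9 and 212.9 CPM in control cells. The groups overlapped, and the log2 fold change of 0.07 did not pass (95% interval -0.02 to 0.15, edgeR adjusted p = 0.255).

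**Figure D2:**
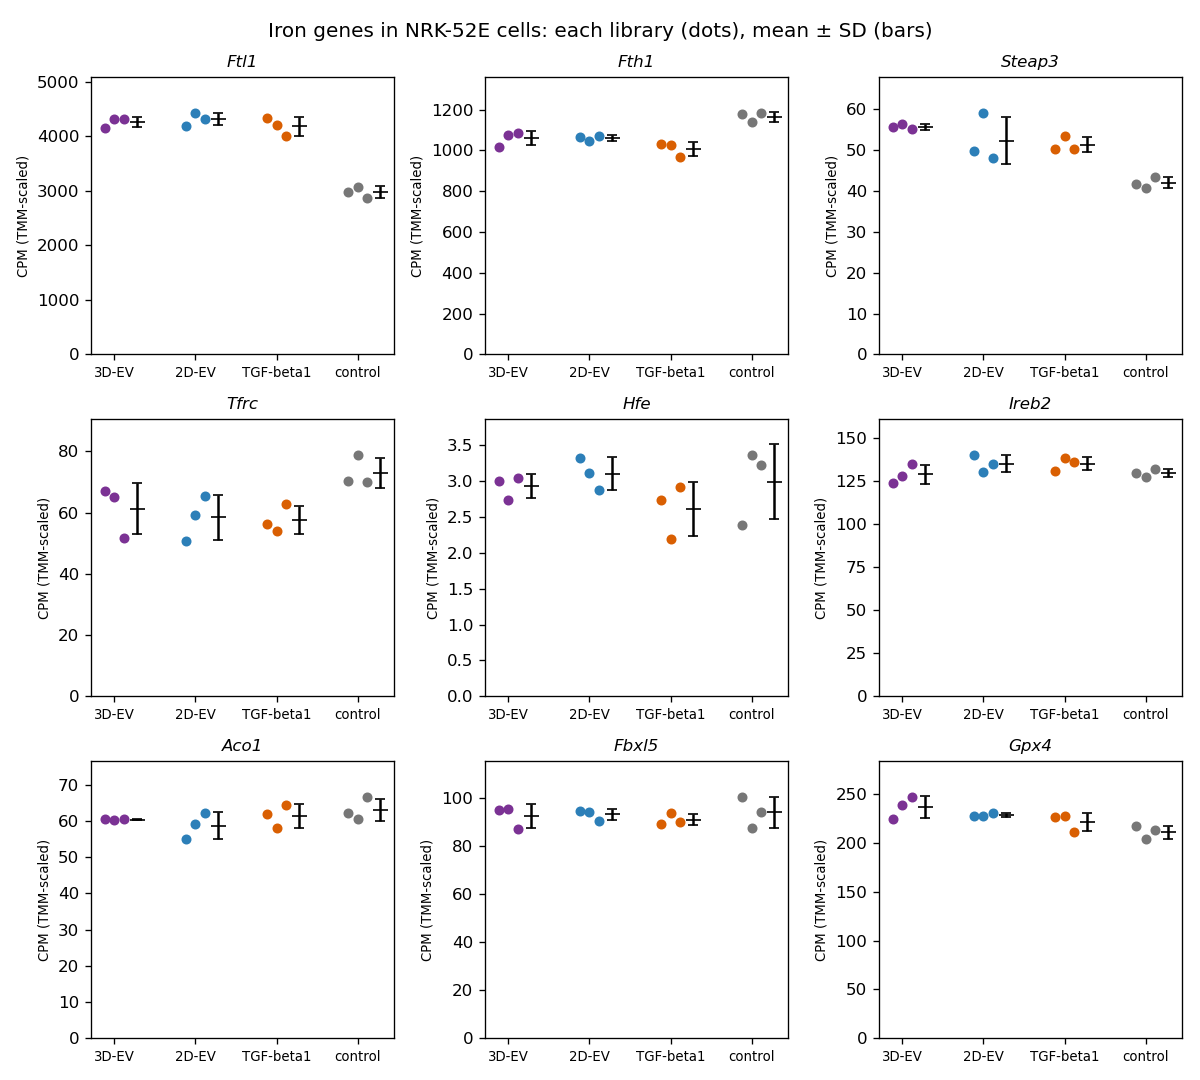
CPM of the 9 tested iron genes in each library (dots, y axes from 0), with the mean ± SD of the 3 libraries beside them, for 3D-EV, 2D-EV, TGF-beta1 and control cells. In the Ftl1 panel the control libraries (2866 to 3074 CPM) stand below the other 9 (3997 to 4417 CPM), and in the Tfrc panel the EV libraries spread from 50.6 to 67.1 CPM.

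2D-EV cells against TGF-beta1 cells. The comparison sets the conventional vesicles beside the cytokine alone. None of the 9 iron genes passed in edgeR, by DESeq2 or by limma-voom (0 in each), where 0.0282% of all tested genes passed in edgeR (4 genes, and 56 with DESeq2). At an unadjusted p below 0.05 there was 1 of the 9 (Fth1), against 7.1% of all tested genes. Ftl1 had 4194, 4417 and 4319 CPM in 2D-EV cells, against 4339, 4207 and 3997 CPM in TGF-beta1 cells. The 2 groups overlapped, and the 95% interval of the log2 difference was -0.03 to 0.12, so that a fall as large as the rise over control cells (0.49) lies outside it. Fth1 had 1066, 1044 and 1071 CPM in 2D-EV cells, against 1032, 1025 and 967 CPM in TGF-beta1 cells. All 2D-EV libraries of Fth1 lay higher, a separation found in 12.4% of all tested genes and in 1 of the 9, yet the difference of 0.07 (log2, SE 0.03) had an edgeR adjusted p of 0.666.

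Tfrc had 50.6, 59.4 and 65.3 CPM in 2D-EV cells, against 56.3, 54.0 and 62.8 CPM in TGF-beta1 cells. The 2D-EV libraries ranged on both sides of the TGF-beta1 libraries (95% interval of the log2 difference -0.20 to 0.23). Steap3 had 49.9, 59.1 and 48.2 CPM in 2D-EV cells, against 50.2, 53.4 and 50.4 CPM in TGF-beta1 cells. Replicate 2 of the 2D-EV cells was the high library, and the interval was -0.11 to 0.17. The other tested genes, Ireb2, Aco1, Fbxl5, Gpx4 and Hfe, differed by -0.06 to 0.25 on the log2 scale, the largest difference being that of the weakly expressed Hfe (3.10 ± 0.23 against 2.61 ± 0.38 CPM, adjusted p = 0.834).

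3D-EV cells against TGF-beta1 cells. This is the same question for the vesicles of the more productive method, with the same TGF-beta1 libraries as reference, so the differences of both EV groups share those 3 libraries. None of the 9 genes passed in edgeR, by DESeq2 or by limma-voom (0 in each), where 0% of all tested genes passed in edgeR (0 genes, and 13 with DESeq2). At an unadjusted p below 0.05 there were 2 of the 9 (Fth1 and Gpx4), against 7.24% of all tested genes. Within groups these 2 genes varied together over the libraries (r = 0.939), so they are not separate evidence. Ftl1 had 4154, 4312 and 4316 CPM in 3D-EV cells, inside the range of TGF-beta1 cells (3997 to 4339 CPM). The 95% interval of its log2 difference was -0.05 to 0.10. Fth1 had 1019, 1078 and 1084 CPM in 3D-EV cells, against 1032, 1025 and 967 CPM in TGF-beta1 cells, a difference of 0.07 on the log2 scale (edgeR adjusted p = 0.667). The groups overlapped through 3D-EV replicate 1. The Ftl1 to Fth1 count ratio was 4.076, 3.999 and 3.982 in 3D-EV libraries, just below all TGF-beta1 libraries (4.105 to 4.206), a log2 difference of -0.05 (exact two-sided permutation p = 0.1, the smallest possible, adjusted 0.15).

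Gpx4 had 224.7, 238.8 and 246.7 CPM in 3D-EV cells, against 226.2, 227.3 and 211.2 CPM in TGF-beta1 cells. The groups overlapped through 3D-EV replicate 1, and the difference of 0.10 (log2, 95% interval 0.01 to 0.18) did not pass (edgeR adjusted p = 0.643). Steap3 had 55.7, 56.4 and 55.1 CPM in 3D-EV cells, against 50.2, 53.4 and 50.4 CPM in TGF-beta1 cells. It was the 1 gene of the 9 whose libraries did not overlap, where 13.6% of all tested genes had none, and its log2 difference of 0.12 did not pass (adjusted p = 0.707). Tfrc had 67.1, 65.0 and 51.8 CPM in 3D-EV cells, with replicate 3 below every TGF-beta1 library and the other 2 above them (95% interval -0.12 to 0.30). Ireb2, Aco1, Fbxl5 and Hfe differed by -0.07 to 0.16 on the log2 scale and overlapped between the groups.

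3D-EV cells against 2D-EV cells. This is the direct comparison of the preparations. None of the 9 iron genes passed in edgeR, by DESeq2 or by limma-voom (0 in each), where 0.00705% of all tested genes passed in edgeR (1 gene, and 21 with DESeq2). Of the 9, 0 had an unadjusted p below 0.05 and 0 separated without overlap, against 6.9% and 11.4% of all tested genes. For Fth1 the means were 1061 ± 35.9 CPM in 3D-EV cells and 1060 ± 14.6 CPM in 2D-EV cells, with a 95% interval of the log2 difference from -0.07 to 0.07. For Ftl1 they were 4261 ± 92.6 CPM in 3D-EV cells and 4310 ± 112 CPM in 2D-EV cells, with an interval of -0.09 to 0.06. The ratio of the ferritin counts averaged 4.019 ± 0.05 in 3D-EV cells and 4.066 ± 0.15 in 2D-EV cells (exact two-sided permutation p = 0.8). Tfrc, Steap3, Gpx4, Ireb2, Aco1 and Fbxl5 differed by -0.07 to 0.09 on the log2 scale. With 3 libraries a group, differences within these intervals are not left out. The intervals are no limits of detection, because a call also had to pass the adjustment over all tested genes. For Hfe the interval was as wide as -0.45 to 0.28.

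EV cells against control cells. These comparisons share the 3 control libraries with the comparison of TGF-beta1 cells, so like values among them are not separate evidence. The markers Krt8 and Col14a1 changed in both of these comparisons too, and Pdgfrb and Cspg4 in that of 3D-EV cells. In 3D-EV cells, 3 of the 9 genes rose and 1 fell, where 23% of all tested genes passed (12.2% higher and 10.8% lower). In 2D-EV cells, 2 rose and 2 fell, where 18.6% passed (10.5% higher and 8.13% lower). The libraries did not overlap for 6 of the 9 genes in 3D-EV against control cells (38% of all tested genes) and for 5 in 2D-EV against control cells (33.2%).

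Ftl1 rose 1.43-fold in 3D-EV cells (log2 fold change 0.52, SE 0.03, edgeR adjusted p = 9.45e-08) and 1.45-fold in 2D-EV cells (0.54, SE 0.03, adjusted p = 9.76e-08) relative to control cells. Both groups thus held ferritin light chain mRNA well above every control library. Fth1 fell by 0.14 on the log2 scale in 3D-EV cells (SE 0.03, edgeR adjusted p = 0.00691) and by 0.14 in 2D-EV cells (adjusted p = 0.00795). The Ftl1 to Fth1 count ratio averaged 4.019 in 3D-EV libraries and was 3.932, 4.233 and 4.034 in 2D-EV libraries, all of both groups above the control libraries (exact two-sided permutation p = 0.1 for each, the smallest possible, adjusted 0.15).

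Steap3 rose 1.33-fold in 3D-EV cells (log2 fold change 0.41, SE 0.06, edgeR adjusted p = 0.000301) and 1.25-fold in 2D-EV cells (0.32, SE 0.06, adjusted p = 0.00263). Tfrc did not pass in 3D-EV cells (61.3 ± 8.28 against 73.0 ± 4.99 CPM, log2 fold change -0.25, edgeR adjusted p = 0.0834), and its libraries still did not overlap with the control ones. Without a filter on low counts that adjusted p was 0.0460. In 2D-EV cells, with 58.4 ± 7.42 CPM on average, Tfrc fell by 0.32 on the log2 scale (adjusted p = 0.0342). That call ended with the replicate block (0.0551), without control replicate 1 (0.0581), 2 (0.134) or 3 (0.0517), or without 2D-EV replicate 1 (0.145) or 2 (0.0765). The difference of Tfrc between 3D-EV and 2D-EV cells was itself tested and did not pass (0.07, 95% interval -0.14 to 0.28).

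Gpx4 rose in 3D-EV cells (236.7 ± 11.1 against 211.2 ± 6.67 CPM, 1.12-fold, SE of log2 0.04, edgeR adjusted p = 0.00793). In 2D-EV cells it had 228.7 ± 2.09 CPM, above every control library, and missed the threshold (log2 fold change 0.115, adjusted p = 0.0599); with DESeq2 it passed (0.0328). The 3D-EV minus 2D-EV difference was 0.05 (95% interval -0.04 to 0.13). RefSeq names 4 further loci after Gpx4, so the caution on copies holds here too. Ireb2, Aco1, Fbxl5 and Hfe did not pass in either EV group against control cells, with log2 fold changes of -0.10 to 0.06, although the Aco1 libraries of 3D-EV cells (60.1 to 60.4 CPM) all lay below those of control cells (60.6 to 66.5 CPM).

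**Figure D3:**
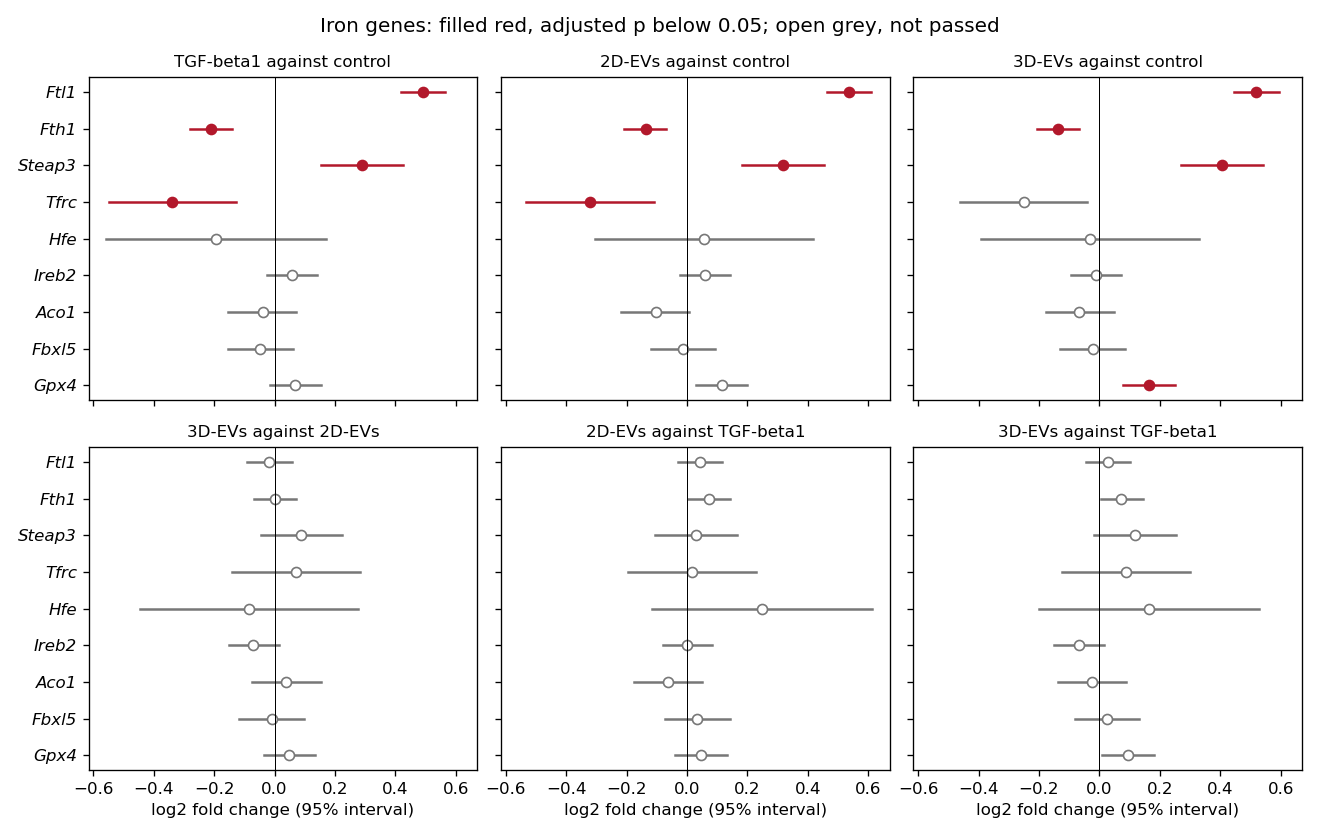
Log2 fold changes of the 9 tested iron genes with 95% intervals (x axis) in the 6 comparisons, the first-named group over the second; filled red points passed an adjusted p of 0.05 and open grey points did not. Ftl1 lies at 0.49 to 0.54 in the 3 comparisons with control cells, and no gene passed in the 3 comparisons among cells given TGF-beta1.

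Genes around the 10 members were taken from lists of iron and ferroptosis genes. Of 19 tested genes of iron transport and its control, 3 rose, 4 fell and 12 did not pass in TGF-beta1 against control cells. The share that passed was 36.8%, where 22% of all tested genes passed, and the median log2 fold change was -0.12. Slc39a14, a zinc and iron importer of the cell membrane, rose (39.7 ± 0.95 against 31.0 ± 1.09 CPM), and so did Bmp6, the ligand that links iron stores to hepcidin in the liver (36.9 ± 1.96 against 28.8 ± 0.78 CPM). Herc2, a ubiquitin ligase, rose by 0.17 (log2), which no longer passed when TGF-beta1 replicate 2 was left out (0.0717). Steap2 (40.3 ± 1.69 against 57.9 ± 0.72 CPM) and Steap1 (15.2 ± 0.87 against 19.9 ± 2.47 CPM), relatives of Steap3, fell, opposite to Steap3 itself. Lcn2, a secreted protein that binds iron-carrying siderophores, fell by 0.36 (log2, edgeR adjusted p = 0.0285), which ended on omitting control replicate 1 or control replicate 3, or any single TGF-beta1 library (0.0544 to 0.119).

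Of 26 tested genes of mitochondrial iron and iron-sulfur clusters, 1 rose, 1 fell and 24 did not pass in TGF-beta1 against control cells, 7.69% passing where 22% of all tested genes did. Nubp2, a cytosolic assembly factor of iron-sulfur clusters, rose (34.2 against 28.3 CPM). Nfs1, the cysteine desulfurase that supplies the sulfur, fell (37.9 against 42.6 CPM), which ended on omitting control replicate 2 (adjusted p = 0.0946), TGF-beta1 replicate 2 (0.101) or replicate 3 (0.0780). Of 18 tested haem genes, 2 rose, 3 fell and 13 did not pass, 27.8% passing where 22% of all tested genes did. Hmox1, the haem oxygenase that frees iron from haem, rose (21.5 ± 2.11 against 17.7 ± 1.00 CPM), which ended on omitting control replicate 1 (0.0641) or TGF-beta1 replicate 3 (0.0651). Flvcr1, a haem and choline transporter, rose (30.3 against 25.4 CPM), which ended on omitting replicate 1 or 2 of either group (0.0504 to 0.0813). The haem synthesis enzymes Alad (71.1 ± 3.49 against 92.6 ± 1.52 CPM) and Cpox (90.0 against 102.1 CPM) fell, as did Slc46a1, a folate and haem carrier (19.95 against 23.3 CPM), the last only with control replicate 3 (0.105 when omitted), TGF-beta1 replicate 1 (0.0954) and TGF-beta1 replicate 3 (0.0558) all in.

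Of 27 tested genes of ferroptosis and glutathione defence, 6 rose, 6 fell and 15 did not pass in TGF-beta1 against control cells. The share that passed was 44.4%, where 22% of all tested genes passed, and the median log2 fold change was -0.02. Lpcat3 (256.1 ± 3.25 against 200 ± 9.50 CPM), which inserts polyunsaturated fatty acids into membrane lipids, and Acsl3 (346.7 ± 9.67 against 278.3 ± 3.22 CPM), which activates mainly monounsaturated ones, rose. Ptgs2, the cyclooxygenase used as a transcript marker of ferroptosis, rose 1.63-fold (19.0 ± 0.88 against 11.7 ± 0.20 CPM). On the side of defence, Aifm2, which regenerates reduced coenzyme Q (35.8 ± 1.02 against 44.4 ± 0.65 CPM), and Gclc, the rate-limiting enzyme of glutathione synthesis (135.9 ± 4.22 against 168.7 ± 3.75 CPM), fell. Nfe2l2, which encodes NRF2, a transcription factor that drives ferritin and glutathione genes, fell too (233.1 against 265.6 CPM, log2 fold change -0.19, SE 0.03). The others that rose were Hspb1, Chac1 and Gss, the glutathione synthetase (41.2 against 35.5 CPM), so that genes of defence did not all fall. The others that fell were Nqo1, Gsr and Gclm. Activity of NRF2 was not measured.

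**Figure D4:**
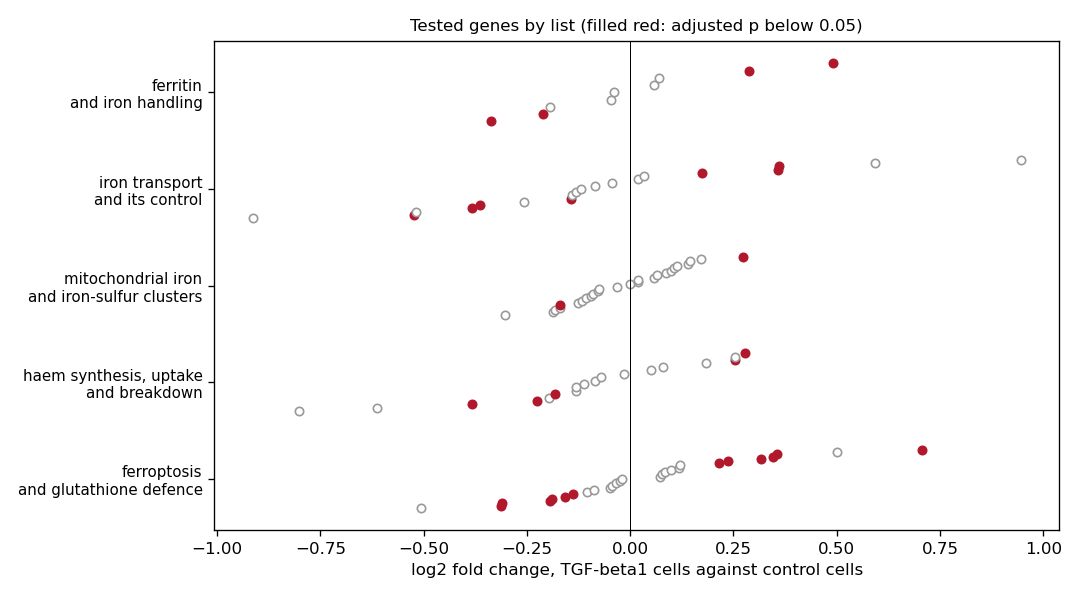
Log2 fold change of TGF-beta1 against control cells (x axis) for each tested gene of the iron gene list and of the 4 lists around it (rows); filled red points passed an adjusted p of 0.05. The iron-sulfur cluster row holds 2 filled points of 26 and the ferroptosis row 12 of 27, on both sides of 0.

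Across the comparisons among cells given TGF-beta1, 0 of the 90 tested genes of these lists passed in edgeR or by limma-voom, and the lowest edgeR adjusted p, members included, was 0.386. At an unadjusted p below 0.05 there were 6 of the 90 in 3D-EV against TGF-beta1 cells (7.24% of all tested genes), 9 in 2D-EV against TGF-beta1 cells (7.1%) and 3 in 3D-EV against 2D-EV cells (6.9%). By DESeq2, 1 of them passed, Lcn2 in 3D-EV against TGF-beta1 cells (log2 fold change 0.61, DESeq2 adjusted p = 0.00228). In 3D-EV against control cells, 7 of 19 transport, 3 of 26 cluster, 3 of 18 haem and 15 of 27 ferroptosis genes passed (36.8%, 11.5%, 16.7% and 55.6%), where 23% of all tested genes did. In 2D-EV against control cells 5, 3, 4 and 12 passed (26.3%, 11.5%, 22.2% and 44.4%), where 18.6% of all tested genes did. The shares of the cluster list lay below that of all tested genes in both comparisons, and that of the haem list in 3D-EV cells. Bmp6 (38.0 CPM in 3D-EV, 34.7 in 2D-EV and 28.8 in control cells) and Slc39a14 (38.7, 38.1 and 31.0 CPM) rose in both EV groups against control cells. Steap2 (45.3, 44.1 and 57.9 CPM), Alad (76.1, 77.4 and 92.6 CPM) and Gclc (136.8, 142.0 and 168.7 CPM) fell in both. Prom2, which in human cells promotes export of ferritin in vesicles, rose in 2D-EV against control cells (2.06 ± 0.46 against 0.875 ± 0.03 CPM, log2 fold change 1.23, SE 0.27, edgeR adjusted p = 0.00445). In TGF-beta1 cells Prom2 had 1.32 CPM, with no overlap with control libraries, and did not pass against control cells (edgeR adjusted p = 0.144). In 3D-EV cells it had 1.42 CPM, also without overlap with control libraries, and did not pass (edgeR adjusted p = 0.08). Such a separation was found in 38% of all tested genes in each of these comparisons. The 2D-EV minus TGF-beta1 difference of Prom2 was 0.64 and did not pass (edgeR adjusted p = 0.598). The 3D-EV minus 2D-EV difference of Prom2 was -0.53 (95% interval -1.08 to 0.01) and did not pass. Tfr2, the second transferrin receptor, fell in 3D-EV against control cells (0 to 14 against 21 to 39 counts a library, edgeR adjusted p = 0.0132). This call ended on omitting control replicate 2 (0.0585) or 3D-EV replicate 3 (0.0576). Tfr2 was also lower, without overlap, in TGF-beta1 (0.449 CPM) and 2D-EV cells (0.409 CPM) than in control cells (0.850 CPM). Those differences did not pass (edgeR adjusted p = 0.273 and 0.23). The 3D-EV minus 2D-EV difference of Tfr2 was -1.30 (95% interval -2.72 to 0.11) and did not pass.

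Against control cells, several more genes of the lists passed. Nubp2 (33.3 CPM in 3D-EV, 33.8 in 2D-EV and 28.3 in control cells) and Cisd3, a mitochondrial iron-sulfur protein (29.5, 29.2 and 25.4 CPM), rose in both EV groups. Hmox1 (21.6, 22.3 and 17.7 CPM) also rose in both, and Cpox (92.2, 89.0 and 102.1 CPM) fell in both. Of the ferroptosis genes, Lpcat3, Acsl3 and Ptgs2 rose by 0.36, 0.28 and 0.79 (log2) in 3D-EV cells and by 0.35, 0.25 and 0.57 in 2D-EV cells. Aifm2 (38.1, 38.6 and 44.4 CPM) and Gsr, the glutathione reductase (103, 103 and 119.3 CPM), fell in both. In 3D-EV against control cells Herc2 rose (0.15 on the log2 scale), and Nfs1 (-0.20) and Neo1, a receptor that takes part in hepcidin control (-0.17), fell. In 2D-EV against control cells Flvcr1 rose (0.24), its libraries overlapping, and Steap1 fell (-0.35, edgeR adjusted p = 0.012). Steap1 also fell in 3D-EV against control cells (-0.28, edgeR adjusted p = 0.0361), with overlapping libraries. That 3D-EV call of Steap1 was not followed through the alternatives. Leaving out a single library ended the calls of Nubp2 and Cisd3 in both EV groups, of Herc2, Neo1, Hmox1 and Cpox in 3D-EV cells, and of Steap1 and Flvcr1 in 2D-EV cells, with adjusted p of 0.0501 to 0.143.

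The genes whose log2 CPM followed Ftl1 most closely over the 12 libraries were Chid1 (Pearson r = 0.988), Sec11c (0.987), Hoxb9 (0.987), Pgd (0.986) and Psmd4 (0.986). Since the control libraries stand apart from the other 9, these r mostly reflect that step and are given as a description. Pgd, an enzyme of the pentose phosphate pathway, had 334.2, 337.5, 344.1 and 258.6 CPM on average in 3D-EV, 2D-EV, TGF-beta1 and control cells, and Sec11c, a subunit of the signal peptidase, 80.0, 77.5, 76.9 and 47.1 CPM.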

How the data were processed

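RNA of 12 libraries was analysed, 3 in each of 4 groups taken from the labels' titles. The authors deposited whole-number counts of reads per gene, not normalized. The submitters' processing notes name fastp, HISAT2, StringTie, DESeq2 and build mRatBN7.2, with no version; strand and counting settings were not stated. The 12 single-library tables were checked to be equal to the joint table. Depth was 32888125 to 39754319 counts a library.

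In R 4.3.3, edgeR 4.0.16 kept 14184 of 24660 genes (filterByExpr, minimum count 10), scaled by TMM, and fitted all 12 libraries by group; 6 contrasts used the quasi-likelihood F-test with Benjamini-Hochberg adjustment over all tested genes (threshold 0.05). DESeq2 1.42.0 and limma 3.58.1 (voom) were alternatives, as were RLE scaling, no filter, a replicate block, fits of 2 groups and leaving out each library. The test was tried on simulated data. Pairs of libraries within a group differed by 6.56 to 10.4 times the counting variance. Same-numbered libraries of different groups had residual correlations of -0.067 to 0.045 (0 of 18 above 0.1), so numbers were not used for pairing. Members, lists, motifs and the naming rule were chosen with earlier results of these data known. Named genes were the 10 members, up to 3 risen and 3 fallen genes per list and comparison by adjusted p, and the 5 genes nearest to Ftl1. A gene that this rule names is not reported here. Promoters are from RefSeq (GRCr8).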

Additional observations from a re-analysis of the deposited data

How the results depend on the processing

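The number of the 9 tested iron genes that passed held under every analysis alternative to within 1 gene: 4 in TGF-beta1 against control cells (3 to 4 when a library was left out), 4 in 3D-EV against control cells (4 to 4; 5 without a filter) and 4 in 2D-EV against control cells (3 to 5; 5 with DESeq2, 5 in a fit of the 2 groups, 3 with a replicate block). It was 0 among the 3 groups given TGF-beta1 under all 18 alternatives. Of 54 combinations of member and comparison, 4 changed their call under some alternative, those of Tfrc and Gpx4 against control cells; 0 changed direction while called. Leaving out a library, the log2 Ftl1 to Fth1 ratio difference was 0.67 to 0.75 for TGF-beta1, 0.62 to 0.70 for 3D-EV and 0.64 to 0.72 for 2D-EV against control cells, -0.06 to -0.04 for 3D-EV and -0.06 to -0.01 for 2D-EV against TGF-beta1 cells, and -0.04 to 0.01 for 3D-EV against 2D-EV cells. The planned sum of Ftl1 and Fth1 with near-identical copies was not run, because the table has 0 other rows so named. With the replicate block, Tfrc in 2D-EV against control cells had an adjusted p of 0.0551; numbers did not pair the samples (for 5 of the 12, the best match bore the same number). Among named companion genes 18 calls changed under some alternative.

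Counts over all genes were small among the groups given TGF-beta1, and alternatives moved them. In 2D-EV against TGF-beta1 cells 4 genes passed (56 with DESeq2, 9 with limma-voom, 14 without a filter, 7 in a fit of the 2 groups, and 1 to 6 when a library was left out). In 3D-EV against TGF-beta1 cells 0 passed (13 with DESeq2, 0 to 2 when a library was left out, and 1027 at an unadjusted p below 0.05). In 3D-EV against 2D-EV cells 1 passed (21 with DESeq2, 2 with limma-voom, 8 without a filter, 2 with the replicate block, 2 in a fit of the 2 groups, and 1 to 4 when a library was left out). The cause was not tested. Counts were low for the named genes Hfe (78 to 118 a library), Prom2 (30 to 80) and Tfr2 (0 to 39). Hoxb9 was low too, with 2.10, 2.13, 2.11 and 0.714 CPM on average in 3D-EV, 2D-EV, TGF-beta1 and control cells.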

Other observations

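Tfrc varied between libraries of a group more than most genes of like abundance. Its spread between libraries, as a biological coefficient of variation in edgeR, was 8.75%, at percentile 97.8 among the tested genes nearest in abundance, while Ftl1 (3.93%, percentile 55.9) and Fth1 (3.77%, percentile 45.3) lay near the middle. Tfrc stood at 67.1, 65.0 and 51.8 CPM in 3D-EV libraries and at 50.6, 59.4 and 65.3 CPM in 2D-EV libraries.

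Lcn2, whose protein binds iron-carrying siderophores, had 12.2 ± 1.36 CPM in 3D-EV cells, 9.85 ± 1.29 CPM in 2D-EV cells, 7.97 ± 0.21 CPM in TGF-beta1 cells and 10.3 ± 0.87 CPM in control cells. Every 3D-EV library (11.1 to 13.7 CPM) lay above every TGF-beta1 library (7.76 to 8.18 CPM), a log2 difference of 0.61 (SE 0.11) that did not pass over all tested genes in edgeR (adjusted p = 0.405) and passed with DESeq2 (adjusted p = 0.00228). The call thus depends on the tool, and the cause was not tested. Every 2D-EV library (8.72 to 11.3 CPM) also lay above every TGF-beta1 library. That log2 difference of 0.31 (SE 0.11) did not pass in edgeR (adjusted p = 0.546) or with DESeq2. The 3D-EV minus 2D-EV difference of Lcn2 was 0.30 on the log2 scale, with overlapping libraries, and did not pass (edgeR adjusted p = 0.618).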
